A study of Oryza sativa Indica Group with 6 samples.

Results

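The genes described here encode the building blocks of microtubules and actin filaments and the proteins that assemble, cut and bundle the actin filaments. They were chosen by name: the symbol or a synonym had to be *TUBA*, *TUBB*, *ACT*, *AC*, *FH*, *ADF* or *VLN* followed by a number, with a leading *Os* ignored. The rule named 40 genes, and 36 of them were measured by at least 1 probe set that is annotated to a single gene, among 17905 such genes in all. They were 1 α-tubulin, 8 β-tubulin, 4 actin, 10 formin, 9 actin-depolymerizing factor (*ADF*) and 4 villin genes. *FH9*, *FH14*, *FH18* and *ADF3* had no such probe set and were not analysed here. Each gene was read by its probe set of highest mean signal, and 30 of the 36 lay at or above the median probe set.

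Transcript levels in seedlings were read with the Affymetrix Rice Genome Array on 3 arrays of the *sd37* mutant and 3 arrays of the wild type, rice (*Oryza sativa* ssp. *indica*) cultivar 3037. The *sd37* mutant is a spontaneous semi-dwarf in this cultivar with a point mutation in the cytochrome P450 gene *CYP96B4*. The seedlings were 2 weeks old, and both genotypes grew in a phytotron with 16 h of light at 26°C and 8 h of dark at 18°C. The labels number the biological replicates 1 to 3 in each genotype and do not say how many plants went into a replicate, so the p-values below measure the spread between these arrays. In whole seedlings, fewer cells of a type and less RNA per cell cannot be told apart.

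α- and β-tubulin form the dimers from which microtubules are built, and in plant cells the microtubules under the plasma membrane guide the deposition of cellulose, while those of the spindle and phragmoplast serve cell division. Actin filaments carry vesicles and organelles to sites of growth. Formins start and extend these filaments, actin-depolymerizing factors sever them and help to take them apart, and villins tie them into bundles.

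Replicate 1 stood apart from replicates 2 and 3 in both genotypes over the array as a whole. The median signal of an array was 56.2 in *sd37* replicate 1 and 51 in wild-type replicate 1, against 32.3 to 34.3 in the other 4 arrays. Markers of tissue and stage moved with the replicate number too. The summed signal of 3 light-harvesting and Rubisco genes was 134773 in *sd37* replicate 1 and 113405 in wild-type replicate 1, against 38133 to 56124 in replicates 2 and 3, and 2 of the 3 genes passed the test given below, both higher. Of 15 floral MADS-box genes, 7 passed, all lower in replicate 1. Some that did not pass were higher, such as *MADS7* (log2 fold change 3.24, SE 1.35, limma adjusted p = 0.126). Its signals were low, at 40.9, 1.7 and 4.3 in *sd37* replicates 1 to 3, against 35.7, 28.4 and 1.3 in wild type. The summed signal of all 15 was 2520 in *sd37* replicate 1 and 3386 in wild-type replicate 1, against 18127 to 21722 in replicates 2 and 3. Most of the sum in replicates 2 and 3 came from *MADS18* (10178.3 to 12102) and *MADS14* (4019.8 to 4620.1), so it does not describe the list as a whole. Over all probe sets 19.2% passed that test, and 34% of those at or above the median signal. Of 4 shoot apex *KNOX* genes none passed (sums of 178 and 156, against 40.4 to 70.3), of 2 root genes 1 passed, lower, and of 5 genes of mitosis none passed. By genotype none of the markers passed. These sums overlapped by genotype, which the gap between replicate 1 and the rest makes likely whatever the genotype. *CAB2R*, of the light-harvesting list, was higher in *sd37* in each replicate number (log2 fold change 0.67). With the replicate number as a block, its unadjusted limma p was 0.00343 and its adjusted p 0.538. In that fit 1 floral MADS-box gene (*MADS15*, -0.95) and 1 gene of mitosis also passed unadjusted at p under 0.05 and 1.5-fold. The share over all probe sets was 4.27%. The gene of mitosis was a *CYCB1-1* (NCBI gene 4327547). Its signals were 108.5, 62 and 58.2 in *sd37* replicates 1 to 3, against 141.2, 162.4 and 173 in wild type. Its log2 fold change was -1.11 (SE 0.42), with no overlap. It passed at the unadjusted limit without the block too, against 2.18% of all probe sets. The median over the list of mitosis was -0.0081, and the other *CYCB1-1* was higher (0.51). No marker was at 0 in all arrays. The part of tissue or stage in the differences by replicate number described below was not tested.

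None of the 36 genes passed a test between the genotypes that takes all probe sets into account. With limma on log2 signals, 0 of 36 genes passed an adjusted p under 0.05 with a change of at least 1.5-fold, and the share over all 57258 probe sets was 0%. Without adjustment, at p under 0.05 and the same 1.5-fold limit, 0 of 36 genes passed as well, against 2.18% of all probe sets, and the plain analysis of variance also gave 0 genes. With the replicate number as a block, 0 of 36 genes passed at the adjusted threshold, against 0.0105% of all probe sets, and 0 of 36 at the unadjusted one, against 4.27%. Of the 36 genes, 32 lay within 1.5-fold between the genotypes, and the 4 beyond it were *ADF1*, *FH6*, *VLN1* and *FH2*. On the log2(signal + 16) scale, which damps the spread of low signals, *ADF1* and *FH2* lay within 1.5-fold too (0.51 and -0.25). The median standard error of a genotype difference over these genes was 0.44 on the log2 scale, and 0.17 with the replicate block. Without the block, the standard error of a gene that differs by replicate number also holds that difference. In the fit without the block the adjusted p of every gene was 1, so the genotype differences below are given with their standard error (SE) alone.

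The direction of the small genotype differences was mixed. Of the 36 genes, 15 were higher and 21 lower in *sd37*. Their median was -0.050 as log2 fold change of *sd37* over wild type, beside 50.8% higher and a median of 0.0041 over all 17905 genes. The split depended on the scaling and on single arrays. With each array centred on its median, 8 genes were higher and 28 lower, beside 35.9% higher and a median of -0.076 over all genes, and with 1 array left out between 11 genes (without wild-type replicate 3) and 20 genes (without wild-type replicate 1 or *sd37* replicate 3) were higher. By family, the median on the deposited scale was -0.0086 for β-tubulins (4 higher, 4 lower), -0.13 for actins (0 higher, 4 lower), -0.017 for formins (5 higher, 5 lower), -0.080 for *ADF* genes (3 higher, 6 lower) and -0.031 for villins (2 higher, 2 lower). The difference had 1 sign in all 3 replicate numbers for 9 genes (25%, against 26.3% of all probe sets). *TUBA1*, *FH6* and *ADF4* were the 3 higher ones and *AC1*, *AC2*, *AC7*, *FH10*, *ADF5* and *VLN1* the 6 lower ones, and *ADF4* turned lower when each array was centred on its median. The arrays of the genotypes did not overlap for *FH6* and *AC2*, 2 of 36 genes (5.56%, against 6.07% of all probe sets).

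**Figure D1:**
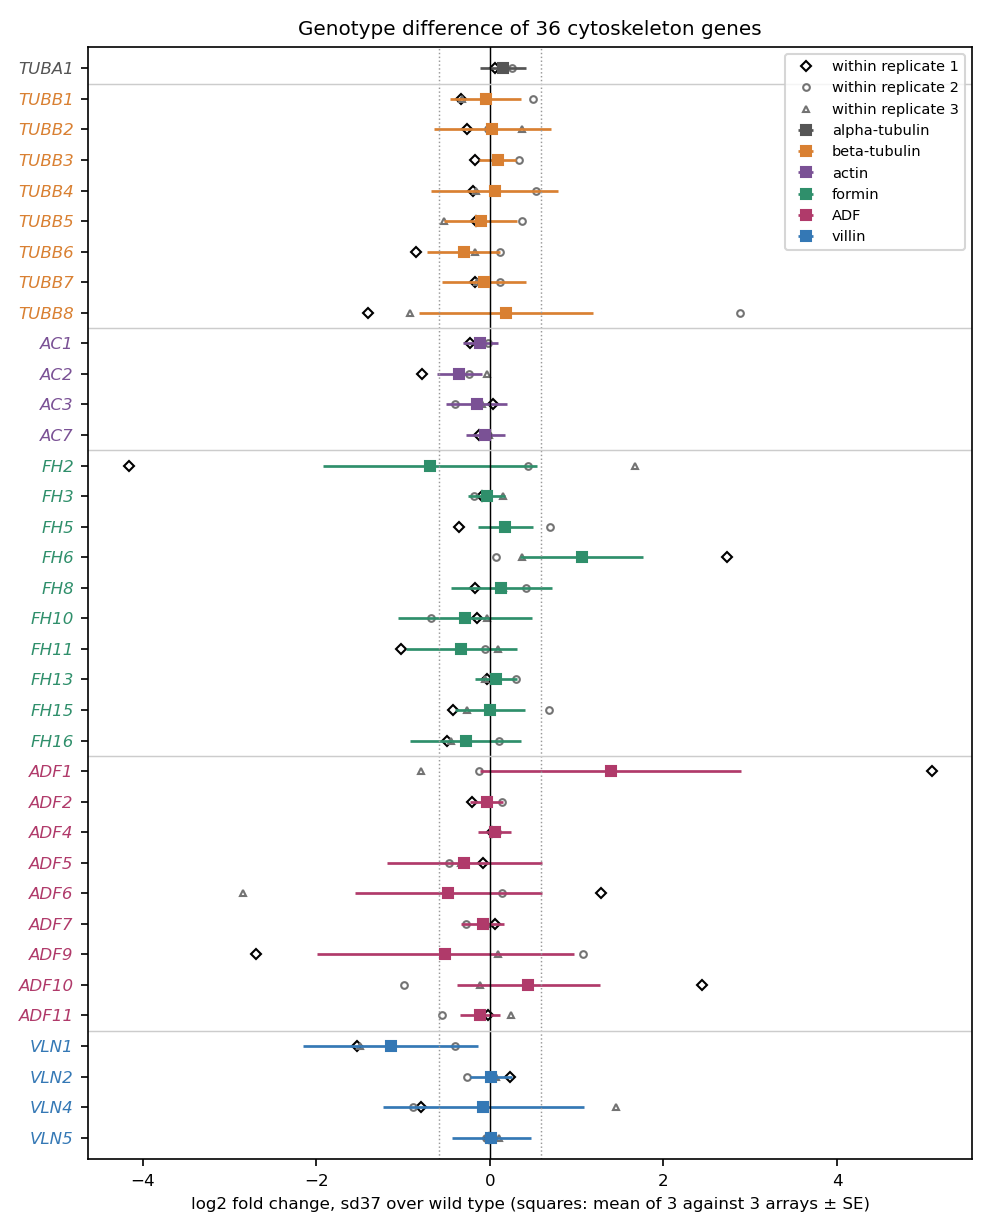
Genotype difference of each of the 36 genes, as log2 fold change of *sd37* over wild type; squares are the fitted difference of 3 against 3 arrays with its standard error, coloured by family, small open symbols are the differences within replicates 1, 2 and 3, and dotted lines mark 1.5-fold. Of the 36 squares, 32 lie between the dotted lines, and the replicate 1 values of *ADF1* (5.09), *FH6* (2.73) and *FH2* (-4.16) lie far from those of the other replicates.

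Between replicate 1 and replicates 2 and 3, with genotype in the fit, 11 of the 36 genes passed the same adjusted threshold (30.6%, against 19.2% of all probe sets). Probe sets of higher signal passed more often: at or above the median signal the shares were 11 of 30 genes (36.7%) and 34% of all probe sets, so the share among these genes lay near the background. Replicate 1 was higher for 6 genes, *TUBB1*, *TUBB4*, *TUBB6*, *TUBB7*, *FH16* and *ADF5* (16.7%, against 9.38% of all probe sets), and lower for 5 genes, *TUBB2*, *TUBB5*, *AC3*, *FH11* and *VLN5* (13.9%, against 9.85%). A further 3 genes, *TUBA1*, *AC7* and *VLN2*, had an adjusted p under 0.05 with a change of less than 1.5-fold. Both replicate 1 arrays lay beyond all 4 others in 22 of 36 genes (61.1%, against 44.9% of all probe sets). For this count the share at or above the median signal is not given here. The scaling bears on these counts: when each array was centred on its median, the median over all genes moved to -0.69, against -0.02 on the deposited scale, and 19 genes passed, 4 higher and 15 lower. All 11 genes kept their direction under each of the 14 alternative settings run. Direction could change only under settings that alter the values or leave out an array. The signal filter, the variance options and the other terms of the fit leave each fold change as it is. *ADF5*, *TUBB2*, *TUBB4*, *TUBB7* and *VLN5* passed in each of the 14 settings.

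Fewer genes passed between replicates 2 and 3. That comparison sets 2 arrays against 2, not 2 against 4, so the counts are not on equal terms. Log2 fold changes of 2.65 for *ADF9* (SE 1.32) and -1.50 for *TUBB8* (SE 0.87) did not pass. Between replicate 3 and replicate 2, 0 of 36 genes passed in limma at the adjusted threshold (0% of all probe sets) and 0 of 36 at the unadjusted one with a 1.5-fold change, against 3.52% of all probe sets. Only *TUBB5* lay under an unadjusted p of 0.05 there, with a log2 fold change of -0.58, just under 1.5-fold (limma adjusted p = 1).

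**Figure D2:**
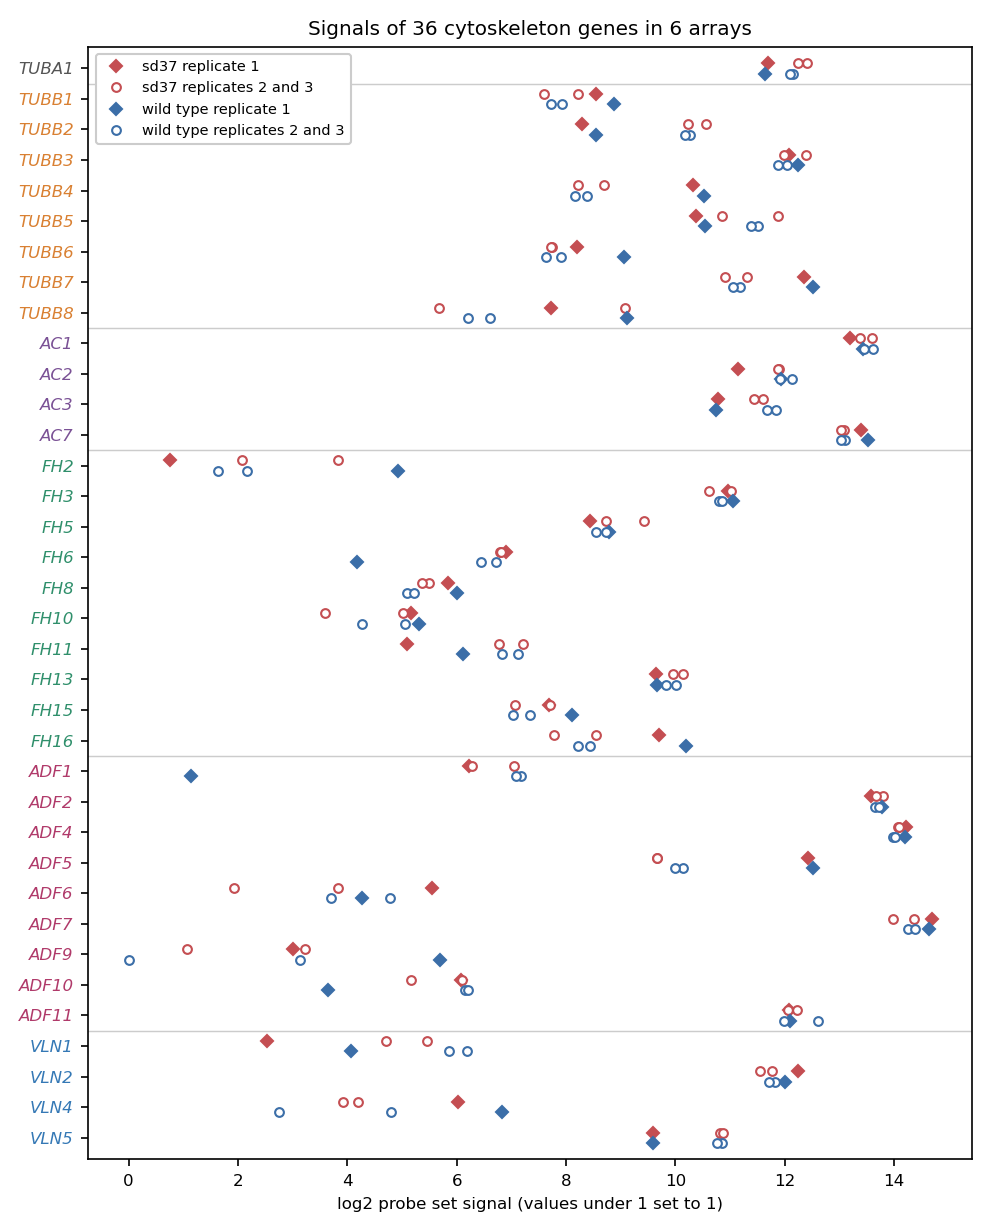
Log2 signal of the 36 genes in each of the 6 arrays, with *sd37* in red above wild type in blue in each row, filled diamonds for replicate 1 and open circles for replicates 2 and 3. The filled diamonds of both genotypes lie together and away from the circles for *ADF5*, *TUBB4*, *TUBB2* and *VLN5*, while the red and blue symbols of most genes overlap. Signals of different probe sets are not comparable in level.

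*TUBA1* was the single α-tubulin gene measured. Its signals were 3321.6, 5394.0 and 4849.6 in *sd37* replicates 1 to 3, against 3181.6, 4515.0 and 4397.8 in wild-type replicates 1 to 3. In each replicate number the *sd37* array was the higher one, but the genotypes overlapped, and the log2 fold change was 0.15 (SE 0.26). With replicates 2 and 3 alone it was 0.20. Without wild-type replicate 1 it was -0.0087, but that fit has no block, so the low signal of *sd37* replicate 1 enters the genotype difference. Both replicate 1 arrays were the lowest 2 of the 6, with a log2 fold change of -0.55 to replicates 2 and 3 (SE 0.10, limma adjusted p = 0.00495), less than 1.5-fold. Without wild-type replicate 1 that change was -0.62, and with median centring it was -1.23, both past 1.5-fold, and it passed.

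The β-tubulin genes were the family with the most differences by replicate number: 6 of 8 passed, 4 higher and 2 lower in replicate 1. The share over all probe sets was 19.2%, and 34% over those at or above the median signal, as all 8 were. *TUBB4* had signals of 1273.9, 415.9 and 298.2 in *sd37* replicates 1 to 3, against 1461.3, 287.4 and 332.6 in wild type. Replicate 1 was 4.13-fold higher in *TUBB4* (log2 fold change 2.05, SE 0.19, limma adjusted p = 0.000106), with no overlap. *TUBB2* went the other way, with signals of 312.1, 1207.5 and 1499.2 in *sd37* replicates 1 to 3, against 374.0, 1225.8 and 1154.7 in wild type. Replicate 1 was 3.70-fold lower in *TUBB2* (log2 fold change -1.89, SE 0.16, limma adjusted p = 6.49e-05). In both genes the replicate 1 arrays of both genotypes lay together, away from the other 4 arrays.

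*TUBB7* and *TUBB5* repeated this opposition at higher signals. *TUBB7* had 5209.4, 2522.1 and 1910.2 in *sd37* replicates 1 to 3, against 5866.5, 2330.3 and 2113.6 in wild type, and replicate 1 was 2.50-fold higher (log2 fold change 1.32, SE 0.13, limma adjusted p = 0.000177). *TUBB5* had 1329.2, 3771.3 and 1858.6 in *sd37*, against 1486.9, 2919.8 and 2668.1 in wild type, and replicate 1 was 1.93-fold lower (log2 fold change -0.95, SE 0.24, limma adjusted p = 0.0204). The arrays of replicate 1 lay beyond all others for both genes, and the call of *TUBB5* was lost without wild-type replicate 1, wild-type replicate 2 or *sd37* replicate 1 (-0.99, -0.93 and -0.91).

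Set against each other within an array, these genes changed unequally with the replicate number, in a comparison that the scaling of a whole array does not change. The pairs were chosen after the calls of their genes were known, so the ratios are a description. The log2 ratio of the *TUBB4* to the *TUBB2* signal was 2.03 in *sd37* replicate 1 and 1.97 in wild-type replicate 1. In the other 4 arrays it was between -2.33 and -1.54. The log2 ratio of *TUBB7* to *TUBB5* was 1.97 in *sd37* replicate 1 and 1.98 in wild-type replicate 1, against -0.58 to 0.04 in the others. A ratio of this kind says that the signals changed unequally, not which transcript was more abundant.

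*TUBB1* and *TUBB6* passed with smaller changes. *TUBB6* had 294.0, 215.3 and 211.8 in *sd37* replicates 1 to 3, against 530.1, 197.7 and 239.1 in wild type. Its change by replicate number was 0.87 (SE 0.24, limma adjusted p = 0.0302) and its genotype difference, the one of smallest p among β-tubulins, was -0.30 (SE 0.42). That difference was -0.85 in replicate 1, 0.12 in replicate 2 and -0.17 in replicate 3, and -0.026 with replicates 2 and 3 alone. Without wild-type replicate 1 alone it was 0.13, in a fit without the block that then also takes up the difference by replicate number. *TUBB1* had a change of 0.84 by replicate number (SE 0.24, limma adjusted p = 0.0334). Neither call held throughout: that of *TUBB6* was lost without wild-type replicate 1, 2 or 3 or *sd37* replicate 3 (0.46, 0.76, 0.87 and 0.93), and that of *TUBB1* without any array but *sd37* replicate 2 (0.63 to 1.05). With median centring both calls were lost, at 0.17 for *TUBB1* and 0.20 for *TUBB6*.

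*TUBB3*, the β-tubulin gene of highest mean signal, had 4311.6, 5332.1 and 4036.7 in *sd37* replicates 1 to 3, against 4841.8, 4234.1 and 3755.4 in wild type. It differed by 0.09 between the genotypes (SE 0.21) and by 0.09 between replicate 1 and the others (SE 0.15, limma adjusted p = 0.712), and the sign of the second value turned with median centring (-0.58). Its probe sets did not tell the same story. The other 2 gave 1.18 (limma adjusted p = 0.00247) and -3.32 (limma adjusted p = 0.00107) for replicate 1, so *TUBB3* is reported as uncertain. *TUBB8*, the last of the family, ranged from 51.3 to 542.2 in *sd37* and from 73.5 to 556.1 in wild type and passed in neither comparison.

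Among the actin genes, which encode the filament's subunit, all 4 were lower in *sd37* by little. *AC2* (NCBI gene 4349087) had signals of 2260.1, 3816.0 and 3753.2 in *sd37* replicates 1 to 3, against 3895.1, 4505.5 and 3840.0 in wild type. Every *sd37* array lay below every wild-type array, although the highest *sd37* signal and the lowest wild-type one lay close together. The log2 fold change was -0.35 (SE 0.26). With the replicate block the unadjusted limma p was 0.0419 and the adjusted p 0.813. The difference was -0.79 in replicate 1, -0.24 in replicate 2 and -0.03 in replicate 3, and without *sd37* replicate 1 it was -0.10. By replicate number *AC2* gave -0.42 (SE 0.15, limma adjusted p = 0.0886), which passed, at -0.74, only when wild-type replicate 1 was left out or the arrays were centred on their medians (-1.09).

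*AC1*, the actin gene of highest mean signal, had 9408.9, 12372.3 and 10603.4 in *sd37* replicates 1 to 3, against 10989.3, 12506.1 and 11216.3 in wild type. It was -0.11 between the genotypes (SE 0.20), lower in *sd37* in each replicate number but with overlap. *AC3* was the actin gene that passed by replicate number. It had 1756.5, 2783.6 and 3087.2 in *sd37* replicates 1 to 3, against 1709.0, 3678.7 and 3278.8 in wild type, and replicate 1 was 1.84-fold lower (log2 fold change -0.88, SE 0.12, limma adjusted p = 0.000901). *AC7* had 10742.8, 8667.5 and 8308.1 in *sd37*, against 11744.8, 8778.7 and 8340.0 in wild type. Its replicate 1 arrays were the highest, by 0.40 (SE 0.10, limma adjusted p = 0.0176), a change of less than 1.5-fold that turned to -0.27 with median centring. The second probe set of *AC7* gave 0.13 (limma adjusted p = 0.387).

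Of the 10 formins, 2 passed by replicate number and none by genotype. *FH16* had 833.3, 372.7 and 219.6 in *sd37* replicates 1 to 3, against 1170.7, 345.8 and 299.3 in wild type. Replicate 1 was 3.26-fold higher (log2 fold change 1.70, SE 0.23, limma adjusted p = 0.000816), with both its arrays above the others. *FH11* had 34.2, 109.2 and 147.6 in *sd37*, against 69.2, 113.2 and 138.5 in wild type, and replicate 1 was lower by 1.37 on the log2 scale (log2 fold change -1.37, SE 0.39, limma adjusted p = 0.034). The call of *FH11* was lost when any array other than wild-type replicate 1 was left out (-1.51 to -0.86).

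*FH6* (NCBI gene 9269435) was the formin of smallest genotype p. Its signals were 120.2, 111.1 and 111.9 in *sd37* replicates 1 to 3, against 18.1, 105.6 and 86.6 in wild type. All *sd37* arrays lay above all wild-type arrays, by a narrow margin except against wild-type replicate 1, the lowest of the 6. The log2 fold change was 1.06 (SE 0.71). It was 2.73 in replicate 1, 0.07 in replicate 2 and 0.37 in replicate 3, and without wild-type replicate 1 it was 0.26.

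A second probe set of *FH6* had signals of 143.1, 109.6 and 41.6 in *sd37* replicates 1 to 3, against 24.1, 79.5 and 75.8 in wild type. The lowest array was again wild-type replicate 1, but here the genotypes overlapped, since *sd37* replicate 3 lay below both wild-type replicates 2 and 3. Its log2 fold change was 0.72 (SE 0.71). By replicate number the first probe set gave -1.15 (SE 0.56, limma adjusted p = 0.183), which was 0.11 without wild-type replicate 1 and -2.40, with the test passed, without *sd37* replicate 1, and the second gave -0.30.

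*FH5*, a formin that in rice links actin filaments and microtubules and affects plant form, had 346.7, 687.6 and 426.6 in *sd37* replicates 1 to 3, against 442.8, 425.0 and 373.5 in wild type. The groups overlapped and the log2 fold change was 0.18 (SE 0.32). *FH3*, the formin of highest mean signal, had 1994.1, 1573.2 and 2071.0 in *sd37*, against 2119.7, 1780.3 and 1858.3 in wild type. It varied little, with -0.04 between the genotypes (SE 0.21) and 0.18 by replicate number (SE 0.13, limma adjusted p = 0.374), a sign that turned with median centring (-0.49). The other 5 formins, *FH2*, *FH8*, *FH10*, *FH13* and *FH15*, passed in neither comparison, and the first 3 of them had no signal above 64.4 in any array.

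**Figure D3:**
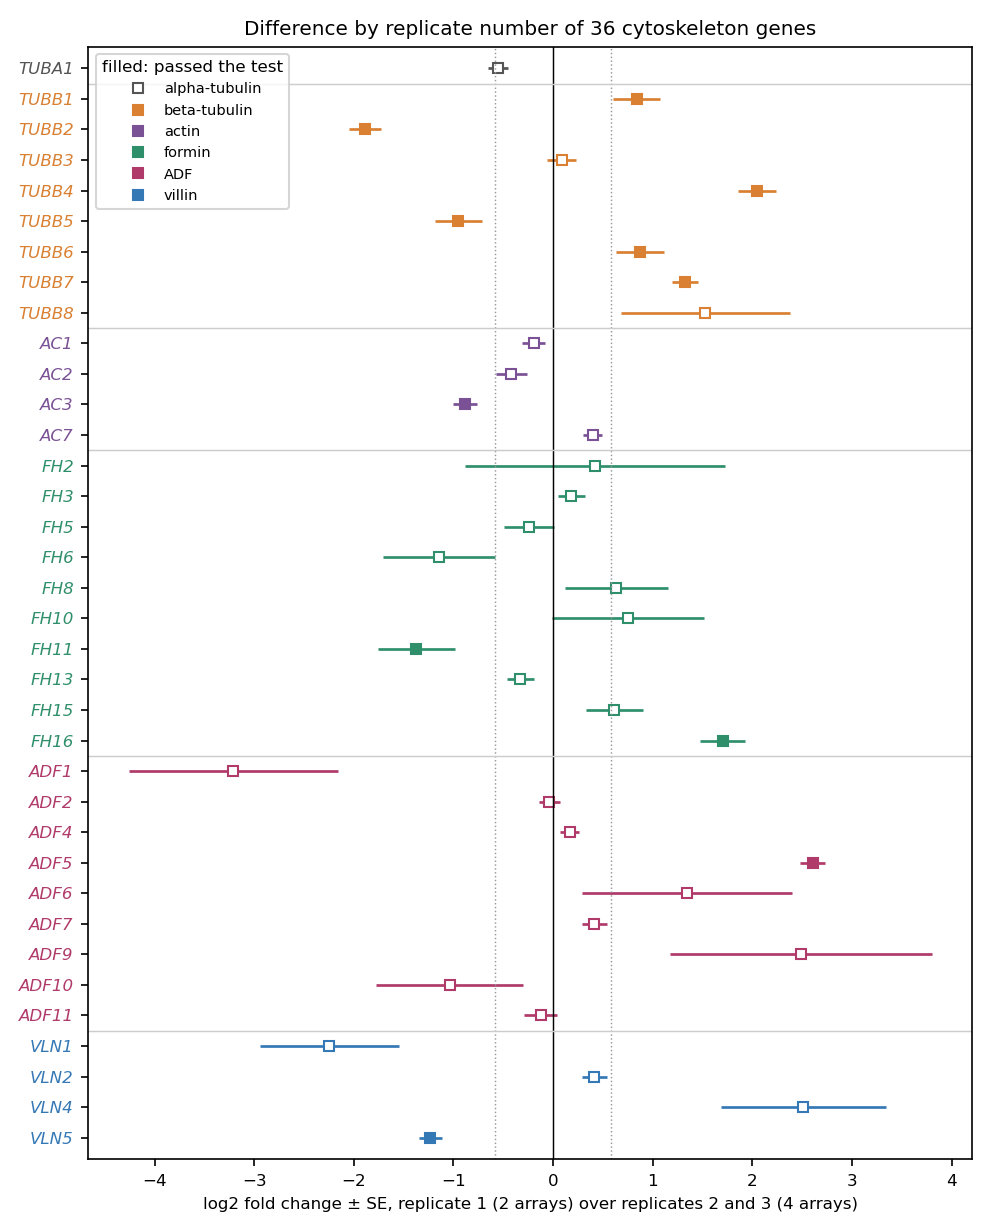
Log2 fold change of replicate 1 (1 array of each genotype) over replicates 2 and 3 (2 arrays of each genotype) for the 36 genes, with limma's standard error; filled squares passed an adjusted p under 0.05 and 1.5-fold, marked by the dotted lines. The 11 filled squares reach from -1.89 for *TUBB2* to 2.61 for *ADF5*, while *ADF1*, *ADF9*, *VLN1* and *VLN4* lie as far from 0 with open squares and wide errors.

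*ADF5* (NCBI gene 4332220) had the largest change by replicate number among the genes that passed. Its signals were 5528.1, 808.0 and 811.3 in *sd37* replicates 1 to 3, against 5820.9, 1120.9 and 1023.8 in wild type. Replicate 1 was 6.09-fold higher (log2 fold change 2.61, SE 0.12, limma adjusted p = 3.83e-06). Within each replicate number the *sd37* array was the lower one, by 0.07, 0.47 and 0.34 on the log2 scale, and the genotype difference was -0.29 (SE 0.89). With the replicate block the SE was 0.12, the unadjusted limma p 0.0440 and the adjusted p 0.816. *ADF5* and *AC2* were the 2 of the 36 genes (5.56%, against 6.08% of all probe sets) with an unadjusted p under 0.05 in that fit, and neither reached 1.5-fold.

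*ADF7*, the gene of highest mean signal in the family, had 26400.6, 16187.3 and 21021.4 in *sd37* replicates 1 to 3, against 25378.6, 19525.9 and 21415.6 in wild type. Both replicate 1 arrays were highest, but the change of 0.41 missed the threshold (SE 0.13, limma adjusted p = 0.0501) and turned to -0.08 with quantile normalization and -0.26 with median centring. Its genotype difference was -0.08 (SE 0.25). *ADF2*, *ADF4* and *ADF11* also had signals of 4043.2 or more in every array and passed in neither comparison, while *ADF6* and *ADF9* had no signal above 51.8.

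*ADF1* had 75.1, 131.9 and 78.1 in *sd37* replicates 1 to 3, against 2.2, 143.7 and 135.3 in wild type. Wild-type replicate 1 was far below the other 5 arrays, and the other 2 wild-type arrays were the highest of all. The genotype difference was 1.39 (SE 1.51) and turned to -0.60 without wild-type replicate 1. *ADF10* was alike in this, with 67.9, 35.9 and 68.1 in *sd37*, against 12.5, 71.1 and 73.9 in wild type. Its genotype difference was 0.45 (SE 0.82), and -0.40 without wild-type replicate 1.

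Among the villins, *VLN5* (NCBI gene 4345036) passed by replicate number. It had 765.7, 1790.6 and 1861.0 in *sd37* replicates 1 to 3, against 770.6, 1848.4 and 1729.8 in wild type, and replicate 1 was 2.35-fold lower (log2 fold change -1.23, SE 0.11, limma adjusted p = 0.000102). The genotypes were alike at each replicate number, with differences of -0.0092, -0.046 and 0.11. A second probe set of *VLN5*, with signals of 154.9 to 239.9, gave -0.07 (SE 0.24, limma adjusted p = 0.867) by replicate number, so the change was seen by the brighter probe set alone.

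*VLN2*, a villin that in rice bundles actin filaments and is needed for normal organ growth, had 4841.5, 2989.3 and 3499.3 in *sd37* replicates 1 to 3, against 4103.3, 3598.9 and 3337.5 in wild type. Replicate 1 was the higher by 0.41 (SE 0.12, limma adjusted p = 0.0443), less than 1.5-fold and -0.26 with median centring, and the genotype difference was 0.01 (SE 0.24). *VLN1* was lower in *sd37* in each replicate number, with 5.8, 43.9 and 26.0 in *sd37* replicates 1 to 3, against 16.8, 58.1 and 73.0 in wild type. Its log2 fold change was -1.14 (SE 1.01), -0.30 without *sd37* replicate 1 and -0.95 with replicates 2 and 3 alone. *VLN4* had 65.4, 15.1 and 18.3 in *sd37*, against 112.9, 27.9 and 6.7 in wild type, and differed by -0.07 between genotypes (SE 1.16). By replicate number *VLN1* gave -2.25 (limma adjusted p = 0.0503) and *VLN4* 2.51 (limma adjusted p = 0.0618), and neither passed. The second probe set of *VLN4*, the dimmer one, did pass. It had 57.7, 9.5 and 1.8 in *sd37* replicates 1 to 3, against 142.3, 1.6 and 9.2 in wild type (log2 fold change 4.51, SE 1.18, limma adjusted p = 0.0253).

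Whether the genotype difference itself depended on the replicate number was tested by the product of both terms. At the adjusted threshold 0 of 36 genes passed in limma (0% of all probe sets), and without adjustment 5 of 36 did at p under 0.05 and 1.5-fold (13.9%, against 7.71% of all probe sets). They were *ADF1*, *FH6*, *ADF10*, *FH2* and *AC2*. Fitted on probe sets at or above the median signal alone, 4 of 30 genes passed unadjusted, against 2846 of 28629 probe sets. *ADF1* differed by 5.09 in replicate 1, against -0.12 in replicate 2 and -0.79 in replicate 3, a product term of 5.55 (SE 0.86, limma adjusted p = 0.573). The wild-type replicate 1 signal of 2.2 lies near the floor of 1, and on the log2(signal + 16) scale the term was 2.72. *FH6* had a product term of 2.51 (SE 0.63, limma adjusted p = 0.573) and *AC2* one of -0.65 (SE 0.21, limma adjusted p = 0.577).

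The wild-type replicate 1 array was the lowest of the 6 for *ADF1*, *FH6* and *ADF10*, and the *sd37* replicate 1 array was the lowest for *AC2*. *FH2* had 1.7, 4.2 and 14.3 in *sd37* replicates 1 to 3, against 30.4, 3.1 and 4.5 in wild type. Both its replicate 1 arrays lay at the extremes, that of *sd37* lowest and that of the wild type highest, and its genotype difference of -0.68 (SE 1.23) was 0.045 without *sd37* replicate 1 and 0.32 without wild-type replicate 1. Replicate 1 holds 1 array of each genotype, so the spread behind this test comes from replicates 2 and 3.

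**Figure D4:**
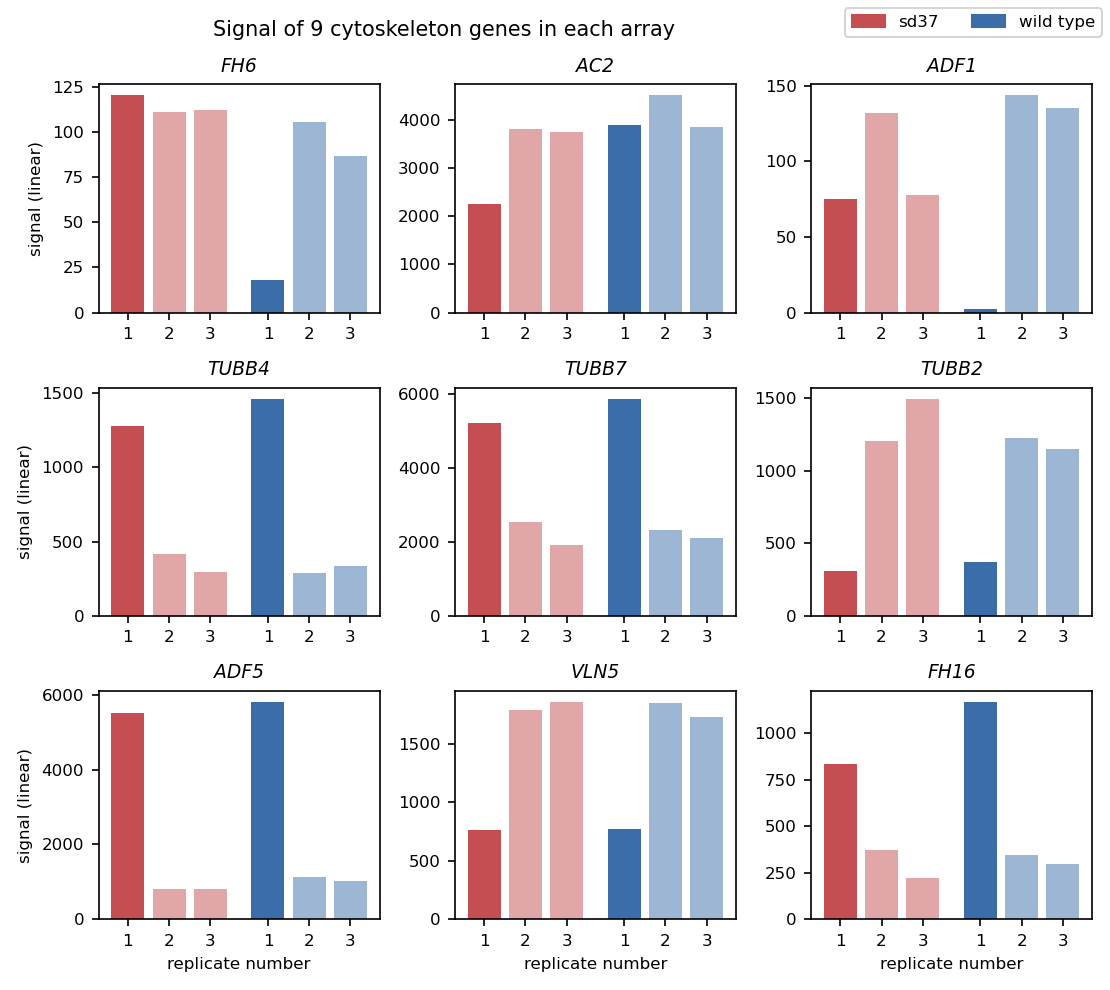
Signals on a linear scale of 9 genes in each array, with *sd37* (red) left of wild type (blue), replicate numbers below the bars and replicate 1 in the darker shade; each panel has its own axis from 0. In *FH6* and *ADF1* wild-type replicate 1 is the low bar (18.1 and 2.2), in *AC2* *sd37* replicate 1 is the low bar (2260.1), and in the lower 6 genes both replicate 1 bars stand apart together.

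Several genes were read by more than 1 probe set, which shows how far a value depends on the probes. Among the 12 such genes, all probe sets gave 1 sign by replicate number in 7, and counting only probe sets of mean signal of 100 or more, in 7 of 9 genes. All 3 probe sets of *TUBB4* were higher in replicate 1 (1.34 to 3.08), both of *TUBB7* were higher (1.23 and 1.32), and the brighter of the other 2 of *AC3* was lower (-0.67, limma adjusted p = 0.0284), as its main one was. The *ADF4* value came from a probe set whose suffix marks probes shared by several transcripts, and those of *TUBB3*, *FH3*, *FH13* and *VLN4* from probe sets whose suffix marks possible cross-hybridization. Members of such families are alike in sequence, and cross-hybridization was not tested.

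Of 14 other genes of the cytoskeleton and its control, chosen by name, 4 passed by replicate number, all lower in replicate 1, against 19.2% of all probe sets and 34% of those at or above the median signal. One of them was *ARP3*, a subunit of the Arp2/3 complex that starts branched actin filaments. It had 174, 575.1 and 539.8 in *sd37* replicates 1 to 3, against 173, 467.7 and 484.4 in wild type, and both replicate 1 arrays lay below the other 4 (log2 fold change -1.57, SE 0.17, limma adjusted p = 0.000237). The median over the list was -0.22, beside -0.02 over all genes and 0.17 over the 36 genes (20 higher, 16 lower).

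By genotype, 0 of the 14 genes passed in limma, and without adjustment 1 of 14 did at p under 0.05 and 1.5-fold, against 2.18% of all probe sets. *ARP3* differed by 0.15 between the genotypes (SE 0.58), with overlap. By the product term none of the 14 passed, *ARP4*, an actin-related protein of the nucleus, included (limma adjusted p = 0.598).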

How the data were processed

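Probe set signals on the Affymetrix Rice Genome Array (57381 probe sets, 6 arrays) were used as the authors deposited them, as linear intensity values. A service hybridized, scanned and normalized the arrays, by an algorithm not given in the sources used here. For RNA extraction the labels name a column kit and the methods guanidinium and phenol. After 123 control probe sets were left out, values under 1 (1.77%) were set to 1 and log2 was taken. No column of the table went unused. R 4.3.3 and limma 3.58.1 (lmFit, eBayes with an intensity trend) were fitted on all 57258 probe sets, with Benjamini-Hochberg adjustment over them; a gene passed at an adjusted p under 0.05 and 1.5-fold. The methods name an analysis of variance with a false discovery rate and no block, so the genotype fit had none. The fits were tested on simulated data before use. Precision is limited by how few arrays there are: the median standard error of the genotype difference was 0.29 in probe sets of mean signal above 346 and 1.08 in those below 8.52. An exact permutation test of 3 against 3 arrays cannot give a p under 0.1.

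Gene names came from the platform annotation, updated through the reference annotation: 22531 probe sets carry a gene, and 95 with several were left out. Of the 36 genes, 12 had more than 1 probe set. Gene sequences were not used here.

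Arrays were given with every value for *FH6*, *AC2* and, in each family, the gene of highest mean signal, the 2 of smallest p by genotype and the 2 of smallest p by replicate number; *TUBB1*, *TUBB5*, *TUBB7*, *FH2* and probe sets other than the main one were added after their values were seen. From the other cytoskeleton genes, the rule took the 2 of smallest p of each comparison, and some of these are not reported here. The genes, lists and comparisons were chosen with earlier results of these data known.

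The same replicate numbers stand in the titles of both genotypes. Deviations of same-numbered arrays from their group's mean correlated at 0.39, 0.13 and 0.16 over probe sets for replicates 1, 2 and 3, and *sd37* replicate 3 with wild-type replicate 2 at 0.16. The numbers were taken as pairs by the rule that each correlation be over 0.1, from the data and not from the labels. As *sd37* replicate 2 with wild-type replicate 3 gave 0.13, the rule does not tell the pairing of replicates 2 and 3 from the crossed one. Differences within replicate 2 or 3 rest on the numbers in the titles. Alternatives were quantile normalization, median centring, log2(signal + 16), only probe sets at or above the median, no intensity trend, plain analysis of variance, each array left out, the replicate block, replicate 1 as a batch, replicates 2 and 3 alone, and every probe set of a gene.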

Additional observations from a re-analysis of the deposited data

How the results depend on the processing

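The number of genes that passed between the genotypes was 0 of 36 under every alternative run, the replicate block, replicates 2 and 3 alone and single arrays left out included, and so were the numbers for replicate 3 against 2 and for the product term under the 4 alternatives run for each. Treating replicate 1 as a batch with quantile normalization, chosen after seeing the data, also gave 0. Blocking by replicate number changed no call among the 36 genes. By replicate number, 11 genes passed; the count was 19 with median centring, 6 without the intensity trend, 6 by plain analysis of variance, 17 of 52 probe sets when every probe set counted, 7 to 11 with 1 array left out (fewest without wild-type replicate 2), and 11 with the replicate number as a block of 3 levels. The cause of these shifts was not tested, except that median centring lowers replicate 1 against the rest by construction, since its arrays have the higher medians.

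Family medians between genotypes moved with the setting. They were set against the standard deviation of the 3 within-replicate medians, which was 0.32 for β-tubulins. Some of the values below lie within it, and the within-replicate medians are not independent of it. Within replicates 1, 2 and 3 the β-tubulin median was -0.23, 0.35 and -0.17 and that of all 36 genes -0.17, 0.076 and -0.030; the villin median was -0.40 within replicate 1 and -0.34 within replicate 2, the *ADF* median 0.028 within replicate 1 and the actin median -0.057 within replicate 3. With median centring the actin median was -0.21 and the *ADF* median -0.16. With 1 array left out the actin median ran from -0.26 to -0.059, the formin median from -0.16 to 0.24, the *ADF* median from -0.099 to 0.10 and the villin median from -0.39 to -0.0056.

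Family medians by replicate number were 0.86 for β-tubulins, -0.31 for actins, 0.30 for formins, 0.17 for *ADF* genes, -0.41 for villins and 0.17 for all 36. With median centring they were 0.19, -0.98, -0.37, -0.51, -1.08 and -0.50 in that order, beside -0.69 over all genes. Quantile normalization gave -0.074 for formins, -0.15 for *ADF* genes and -0.11 for all 36, and the signal filter -0.032, -0.041 and 0.023. Within *sd37* the β-tubulin median was 0.40, the actin median -0.51, the formin median 0.13 and the *ADF* median 0.46; within the wild type the actin median was -0.10. Over every probe set the villin median was 0.41. With 1 array left out the ranges were 0.40 to 1.17 for β-tubulins, -0.51 to -0.10 for actins, 0.047 to 0.44 for formins, 0.085 to 0.46 for *ADF* genes and 0.13 to 0.22 for all 36.

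Single genes that turned sign between genotypes had not passed. Those given here are not all that turned: *TUBB2* ran from -0.53 to 0.73 and *TUBB4* from -0.56 to 0.81 with 1 array left out. Genotype fits with 1 array left out have no block. Leaving out a replicate 1 array therefore lets the difference by replicate number into the genotype value. The range of *ADF5* is an example, since its *sd37* array was the lower one in each replicate number. With replicates 2 and 3 alone the values were 1.05 for *FH2*, -0.46 for *ADF1*, -0.55 for *ADF10*, -0.0997 for *VLN2* and 0.28 for *VLN4*; with median centring they were -0.022 for *ADF4* and -0.067 for *VLN2*. With 1 array left out the ranges were -0.0087 to 0.36 for *TUBA1*, -0.028 to 0.18 for *TUBB3*, -0.58 to 0.13 for *TUBB6*, -0.16 to 0.10 for *AC7*, -1.49 to 0.32 for *FH2*, -0.11 to 0.086 for *FH3*, -0.10 to 0.39 for *FH5*, -0.58 to 0.22 for *FH10*, -0.60 to 2.41 for *ADF1*, -1.22 to 0.52 for *ADF5*, -0.25 to 0.10 for *ADF7*, -0.40 to 0.88 for *ADF10*, -0.18 to 0.17 for *VLN2* and -1.10 to 0.94 for *VLN4*. By replicate number, median centring turned *TUBB3* to -0.58, *AC7* to -0.27, *FH2* to -0.25, *FH3* to -0.49, *ADF7* to -0.26 and *VLN2* to -0.26, and quantile normalization turned *FH2* to -0.33 and *ADF7* to -0.079. With 1 array left out *TUBB3* ran from -0.11 to 0.28, *FH2* from -2.19 to 3.02 and *FH6* from -2.40 to 0.11. Low signal limits what can be seen in *FH2*, *FH10*, *ADF6*, *ADF9*, *VLN1* and *VLN4*, and in *ADF1* through a wild-type replicate 1 signal of 2.2.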

Other observations

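*TID1*, a rice α-tubulin gene whose synonym *TubA* carries no number, fell outside the rule on names and was looked at after its values were seen. Its 3 probe sets gave log2 fold changes of 0.17 to 0.22 between *sd37* and the wild type and of 0.24 to 0.44 between replicate 1 and replicates 2 and 3, and none passed in limma. The brightest had signals of 5123, 5548.5 and 3843.4 in *sd37* replicates 1 to 3, against 5234.5, 3943.6 and 3534.1 in wild type. Its arrays overlapped by genotype and by replicate number, while *TUBA1* was lower in both replicate 1 arrays.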
